A study of Mus musculus with 6 samples.

Results

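The thick filament of heart muscle is built from myosin, and the genes of its chains were followed here in HL-1 cells, a dividing mouse cardiomyocyte line that came from an atrial tumour. The genes were taken by name and numbered 10: the heavy chains Myh6, Myh7 and Myh9, the light chains Myl2, Myl3, Myl4, Myl6, Myl7 and Myl9, and Mybpc3, the cardiac myosin-binding protein C. Of these, 9 had a probe on the Illumina MouseRef-8 beadchip and 1, Myl9, was not analysed here because no probe carried its symbol in the annotation used. The 9 genes had 10 probes among the 25697 on the array. A probe was tested where it was detected above the negative control beads (detection p under 0.05) on at least 2 of the 6 arrays, and 7 member probes for 7 genes were among the 6194 tested.

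All groups were the same line in Claycomb medium, with 2 arrays each. Untreated cells received no hyaluronan, the o-HA cells received hyaluronan oligomers of 6 sugars, and the n-HA cells received native-size chains of 1000 kDa. Hyaluronan is an unbranched sugar polymer of the extracellular matrix, and the question was whether its presence and its chain length alter transcription in cardiomyocytes. Cells were harvested after about a day, the hyaluronans were given at different doses, and each group lay at its own neighbouring places of 1 chip, so that dose, chain length and chip place cannot be told apart.

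In muscle, a pair of heavy chains forms the motor and tail of each myosin molecule, and each motor head carries an essential and a regulatory light chain on its lever arm. The heart uses different genes in its chambers and stages: Myl4 and Myl7 encode the atrial essential and regulatory chains, Myl3 and Myl2 the ventricular ones, Myh6 the fast alpha heavy chain that dominates in the adult mouse heart, and Myh7 the slower beta chain that dominates in the ventricle before birth. Myh9, Myl6 and Myl9 belong to the myosins of non-muscle and smooth muscle cells, and myosin-binding protein C braces the thick filament and tunes how fast the motors attach.

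To show the control regions behind the transcripts that lay apart from untreated cells, the RefSeq promoters (build GRCm38.p6, 250 bases before to 50 bases after the annotated start) of Myh6, Myl3, Myl7 and Mybpc3, which read lower on both o-HA arrays, and of Myl2, which read higher, are printed 5′ to 3′ on the strand of the gene. All 10 members had a promoter in the RefSeq table. Capitals mark matches on either strand to motifs of cardiac and general factors. The letters AGATAA were searched for GATA factors, AGGTGT stood for TBX5 and TNAAGTG for NKX2-5, while CATTCC is the core read by TEAD factors and TATAAA the TATA box. The MEF2 and CArG motifs were searched as letter patterns that allow several bases at some places.
Myh6 (chr14:54966558-54966857, minus strand): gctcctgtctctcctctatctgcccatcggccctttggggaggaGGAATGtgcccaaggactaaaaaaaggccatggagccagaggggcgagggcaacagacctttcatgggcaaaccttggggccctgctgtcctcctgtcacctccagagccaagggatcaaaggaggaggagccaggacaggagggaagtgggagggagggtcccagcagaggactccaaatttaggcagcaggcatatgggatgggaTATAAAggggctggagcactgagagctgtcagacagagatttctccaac
Myl3 (chr9:110763428-110763727, plus strand): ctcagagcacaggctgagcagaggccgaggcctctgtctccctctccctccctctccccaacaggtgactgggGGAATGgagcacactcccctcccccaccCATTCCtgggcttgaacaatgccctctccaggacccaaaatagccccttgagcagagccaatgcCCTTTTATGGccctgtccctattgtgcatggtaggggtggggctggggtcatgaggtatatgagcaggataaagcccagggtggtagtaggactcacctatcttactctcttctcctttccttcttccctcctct
Myl7 (chr11:5898733-5899032, minus strand): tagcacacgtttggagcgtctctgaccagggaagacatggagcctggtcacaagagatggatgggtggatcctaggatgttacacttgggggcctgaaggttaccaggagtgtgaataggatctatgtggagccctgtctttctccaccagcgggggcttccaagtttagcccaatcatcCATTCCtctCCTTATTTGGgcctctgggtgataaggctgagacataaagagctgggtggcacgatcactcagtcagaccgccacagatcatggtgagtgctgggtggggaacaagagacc
Mybpc3 (chr2:91117894-91118193, plus strand): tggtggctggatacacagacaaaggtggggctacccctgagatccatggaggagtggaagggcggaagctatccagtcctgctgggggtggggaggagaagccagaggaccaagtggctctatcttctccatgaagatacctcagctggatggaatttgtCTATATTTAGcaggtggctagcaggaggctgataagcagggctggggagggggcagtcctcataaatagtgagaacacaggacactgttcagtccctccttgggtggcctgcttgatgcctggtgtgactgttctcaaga
Myl2, first of its promoters (chr5:122092474-122092773, plus strand): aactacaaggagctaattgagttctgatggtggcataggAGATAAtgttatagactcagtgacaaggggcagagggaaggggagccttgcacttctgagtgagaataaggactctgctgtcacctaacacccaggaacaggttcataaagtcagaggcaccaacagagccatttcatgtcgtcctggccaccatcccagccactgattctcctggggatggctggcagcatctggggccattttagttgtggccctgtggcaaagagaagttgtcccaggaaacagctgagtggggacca

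No motif matched all 5 promoters. A TEAD match lay in those of Myh6 (at -206 from the start), Myl3 (at -177 and -149) and Myl7 (at -70), and a CArG match lay in those of Myl3 (at -85) and Myl7 (at -61). Mybpc3 held a MEF2 match at -90, Myl2 a GATA match at -211, and Myh6 a TATA match at 2. Among promoters not printed, a TEAD match (at -201) and an NKX2-5 match (at -177) lay in a promoter of Myh7. CArG matches lay in promoters of Myl6 (at -50) and Myl9 (at -161). Myh7, Myl6 and Myl9 were not among the tested genes. Myh9 (at -123) and the other Myl2 promoter (at -216) held a TATA match alone, and Myl4 held no match. Of 32544 promoters of the same length, 14.6% held a TEAD match, 1.64% a CArG match, 3.16% a MEF2 match, 11.2% a GATA match, 13.6% a TATA match, 13.8% a TBX5 match and 11.5% an NKX2-5 match. A match is a description of letters and not a site, and no protein was measured on these promoters.

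The arrays differed in brightness and 1 of them stood apart. Mean bead intensity was 93.3 to 141 per array and 4546 to 5763 probes were detected, with the n-HA arrays lowest in both. In n-HA replicate 1 the log2 values had correlations of 0.817 to 0.873 with the rest, against 0.962 or above among the other 5 arrays, so results are given with and without it. The labels do not say whether replicates were separate cultures, so p-values measure only the spread between these samples. Levels below are log2 intensities after background correction and quantile normalization, and levels of different probes were not compared with each other, since probes bind unequally. In RNA from a whole culture, fewer cells of a type and less RNA per cell cannot be told apart.

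The alpha heavy chain Myh6, light chains Myl3 (ventricular) and Myl7 (atrial), and Mybpc3 read lower on both o-HA arrays than on either untreated array. The ventricular regulatory chain Myl2 read higher on both. Such separation was common, since 22% of all 6194 tested probes lay lower in this way and 21.7% higher. With n-HA, Mybpc3 and Myl7 lay furthest below untreated cells, and the non-muscle heavy chain Myh9 lay above them, furthest on n-HA replicate 1. With all 6 arrays none of these differences passed the limma test after Benjamini-Hochberg adjustment over all probes, at an adjusted p under 0.05, and neither did any other probe (0 of 6194, or 0%, in each comparison). Without n-HA replicate 1, Mybpc3 fell with n-HA and Myl3 was higher with n-HA than with o-HA, though the n-HA group then held 1 array, which was assumed to vary like the other groups. Myl7 also passed there, but it was detected on no n-HA array and entered the test through the untreated cells where it was brightest, so its p is given as a description.

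**Figure D1:**
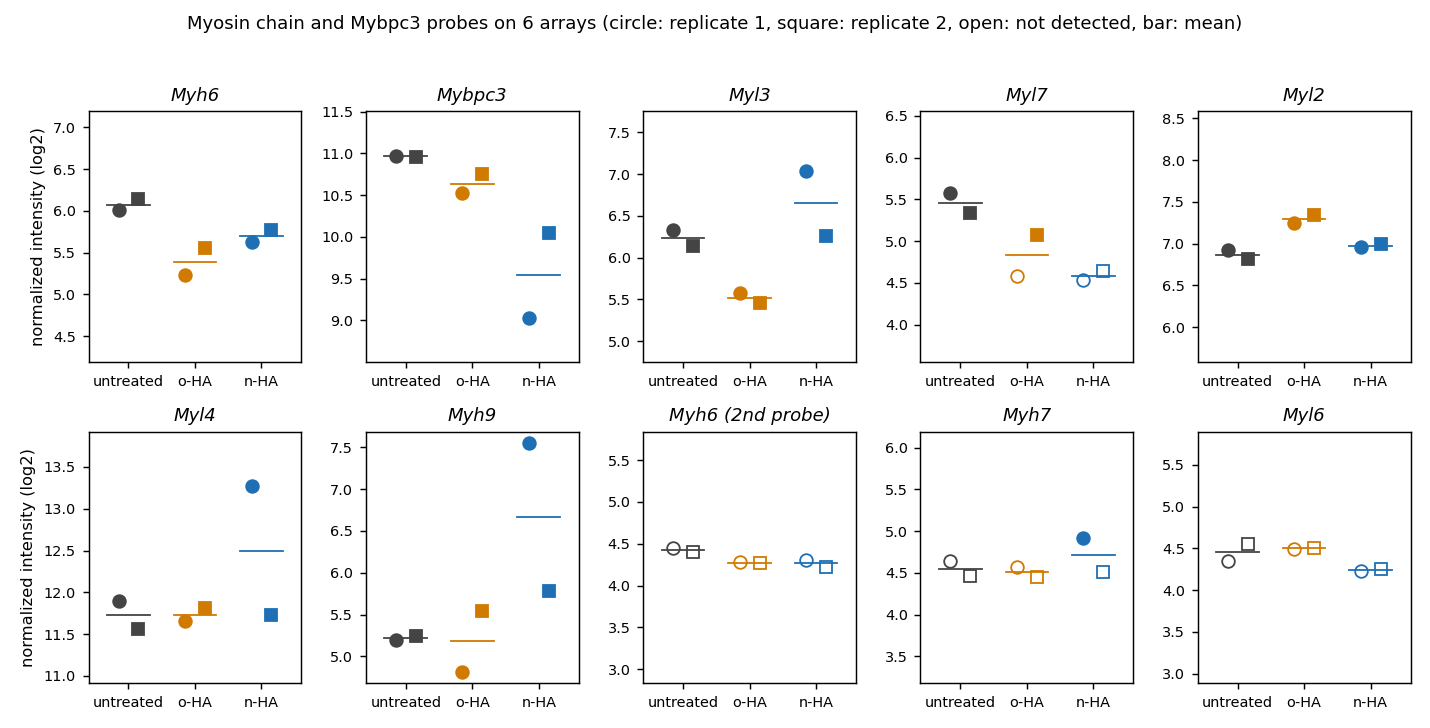
Normalized log2 intensity (vertical axis) of all 10 member probes on the 6 arrays, by group (horizontal axis), with circles for replicate 1, squares for replicate 2, open symbols where the probe was not detected and a bar at the group mean. Both o-HA arrays lie below both untreated arrays for Myh6, Myl3, Myl7 and Mybpc3, and n-HA replicate 1 lies far from n-HA replicate 2 for Mybpc3, Myl4 and Myh9.

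Myh6 was detected on all 6 arrays by its leading probe (ILMN_2788836). Its log2 level was 6.01 and 6.15 in untreated cells, 5.23 and 5.55 after o-HA, and 5.63 and 5.77 after n-HA. The untreated arrays were the highest, the o-HA arrays the lowest, and no group overlapped another. The fitted difference from untreated was -0.68 with o-HA (SE 0.22, 95% interval -1.23 to -0.14, a 1.60-fold lower level), with an unadjusted p of 0.0221 and an adjusted p of 1 from limma. It was -0.71 (SE 0.18) with an adjusted p of 0.114 when n-HA replicate 1 was left out. With n-HA the difference was -0.37 (SE 0.22, adjusted p = 0.346), and -0.31 without replicate 1 (adjusted p = 0.354). It was -1.10 (adjusted p = 0.0310) with no normalization between arrays, where the median of all probes was -0.35. A second Myh6 probe (ILMN_2640008) was detected on 0 arrays, with intensities of 50.4 to 64.3, and gives no check of the first. Probe sequences were not used here, so cross-binding between the closely similar Myh6 and Myh7 transcripts was not tested.

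The beta heavy chain Myh7 was near background. Its probe (ILMN_2945491) was detected on n-HA replicate 1 alone, at an intensity of 74.0 with a detection p of 0.0326, and read 63.9 to 70.7 on the other 5 arrays. It was therefore not tested, and no shift between the alpha and beta chains can be read from these arrays.

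Myh9, the heavy chain of non-muscle myosin, was detected on all 6 arrays (ILMN_2672626). Its log2 level was 5.20 and 5.24 in untreated cells, 4.81 and 5.55 after o-HA, and 7.56 and 5.78 after n-HA. Both n-HA arrays were above the other 4, but they lay 1.78 apart, and the o-HA arrays enclosed the untreated ones. The difference with n-HA was 1.45 (SE 0.58, unadjusted p = 0.0472, adjusted p = 0.225) and was 0.58 (SE 0.27, adjusted p = 0.151) without n-HA replicate 1. Without n-HA replicate 2, which left only the array that stood apart, it was 2.41. With no normalization between arrays it was 0.78 (adjusted p = 0.500). With o-HA it was -0.04 (SE 0.58, 95% interval -1.46 to 1.38).

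Among the essential light chains, the ventricular Myl3 lay below the untreated mean on both o-HA arrays and above it on both n-HA arrays. Its log2 level (ILMN_2691780) was 6.33 and 6.15 in untreated cells, 5.58 and 5.46 after o-HA, and 7.04 and 6.27 after n-HA. The o-HA arrays were the lowest 2 of the 6, n-HA replicate 1 was the highest, and n-HA replicate 2 lay between the untreated arrays. The difference with o-HA was -0.72 (SE 0.30, 95% interval -1.46 to 0.02, unadjusted p = 0.0538, adjusted p = 1), or 1.65-fold lower. It was -0.75 (SE 0.18, unadjusted p = 7.27e-04, adjusted p = 0.0928) without n-HA replicate 1. With n-HA it was 0.41 (SE 0.30, adjusted p = 0.429), with 0.03 without n-HA replicate 1 and 0.81 without n-HA replicate 2. It was -0.46 with no normalization between arrays (adjusted p = 0.548).

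Myl4, the atrial essential light chain, was bright on every array. Its bead intensity (ILMN_2610744) was 4906 and 3097 in untreated cells, 3550.2 and 4088 after o-HA, and 9173 and 2049 after n-HA. These gave log2 levels of 11.90 and 11.56, 11.65 and 11.81, and 13.27 and 11.73. 5 of the 6 arrays lay within a narrow band and n-HA replicate 1 stood above it, so the groups overlapped. The difference was 0.00 with o-HA (SE 0.49, 95% interval -1.20 to 1.20) and 0.77 with n-HA (SE 0.49, adjusted p = 0.373). Without n-HA replicate 1 both were -0.01, with 95% intervals of -0.40 to 0.39 for o-HA and -0.49 to 0.47 for n-HA. Without n-HA replicate 2, which left only the array that stood apart, the n-HA difference was 1.53.

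Of the regulatory light chains, the atrial Myl7 was dim and was not detected on 3 of the 4 treated arrays. Its probe (ILMN_2768252) was detected on both untreated arrays and on o-HA replicate 2, and on neither n-HA array, so that it entered the test through the group where it was brightest. Its log2 level was 5.57 and 5.34 in untreated cells, 4.59 and 5.07 after o-HA, and 4.53 and 4.64 after n-HA. Both untreated arrays lay above all 4 treated ones, and the o-HA and n-HA arrays overlapped. The difference with o-HA was -0.63 (SE 0.25, 95% interval -1.24 to -0.01, unadjusted p = 0.0470, adjusted p = 1), and -0.66 (SE 0.20, adjusted p = 0.163) without n-HA replicate 1. With n-HA the level was at least 1.53-fold lower, from the untreated mean set against the lowest level still detected on the n-HA arrays, with an adjusted p of 0.176 (0.0561 to 0.381 over 9 settings that left out no replicate). Leaving out n-HA replicate 1, the bound was 1.54-fold (adjusted p = 0.0284), and without n-HA replicate 2 the adjusted p was 0.00330. Since the filter kept the probe for its untreated level, these p-values do not support a fall.

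The atrial marker genes did not all read the same way. Of 8 atrial markers on the array, 4 were detected on all 6 arrays and 3 (Bmp10, Kcna5 and Mybphl) on none. The mean log2 level of those tested was 6.62 to 6.75 on the untreated arrays, 6.27 to 6.29 with o-HA and 6.12 to 6.14 with n-HA. With all 6 arrays 4 of the 5 tested read lower with o-HA and 3 of 5 with n-HA, and none passed in either. Of all probes 49.7% and 50.7% read lower, in the same order. Tbx5 lay furthest below untreated cells (-1.06 with o-HA and -2.09 with n-HA), while Nppa, which encodes the atrial natriuretic peptide, read 0.17 and 0.32 above them. Without n-HA replicate 1, the n-HA differences were -1.37 for Tbx5, -1.18 for Nr2f2 and -0.64 for Sln, but 0.39 for Gja5 and 0.08 for Nppa. The list holds Tbx5 and Nr2f2, described further on, and its part in the Myl7 values was not tested.

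Myl2, the ventricular regulatory light chain, read above untreated cells with o-HA, where Myl7 read below them. Its log2 level (ILMN_1260428) was 6.92 and 6.82 in untreated cells, 7.24 and 7.35 after o-HA, and 6.96 and 6.99 after n-HA. The groups did not overlap, with o-HA the highest, but the n-HA arrays cleared the brighter untreated array only narrowly. The difference with o-HA was 0.43 (SE 0.20, 95% interval -0.07 to 0.92, unadjusted p = 0.0784, adjusted p = 1), or 1.34-fold higher, and 0.42 (SE 0.17, adjusted p = 0.278) without n-HA replicate 1. With n-HA it was 0.11 (SE 0.20, adjusted p = 0.762), and -0.83 (adjusted p = 0.105) where arrays were not normalized to each other. Of 5 ventricular marker genes, 3 (Irx4, Kcnj2 and Pln) were detected on no array and 1, Hrc, was tested. Hrc had -0.05 with o-HA (SE 0.81) and 0.94 with n-HA (SE 0.81), or -0.43 with n-HA without n-HA replicate 1. The part of this list in the Myl2 values was not tested.

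Myl6, the essential light chain of non-muscle and smooth muscle myosin, was detected on 0 arrays. Its probe (ILMN_2900910) read 52.4 to 66.6, and no level is given for it.

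Mybpc3 gave the lowest adjusted p of the members in n-HA cells. Its bead intensity (ILMN_2689136) was 2864 and 2129 in untreated cells, 1571 and 2013 after o-HA, and 452 and 609 after n-HA, each read from 35 to 48 beads. The log2 levels were 10.97 and 10.96 in untreated cells, 10.53 and 10.75 after o-HA, and 9.03 and 10.05 after n-HA. No group overlapped another, and both n-HA arrays were the lowest, with 1.02 between them.

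The Mybpc3 difference with n-HA was -1.42 (SE 0.36, 95% interval -2.29 to -0.55, a 2.68-fold lower level), with an unadjusted p of 0.00692 and an adjusted p of 0.170. Over 10 settings that left out no replicate the adjusted p ranged from 0.0136 to 0.381 and the difference from -2.34 to -1.31. Without n-HA replicate 1 Mybpc3 fell by 0.90 (SE 0.22, 95% interval -1.36 to -0.44, 1.87-fold). Without n-HA replicate 2, which left only the array that stood apart, it fell by 1.94. With o-HA the difference was -0.33 (SE 0.36, 95% interval -1.20 to 0.54, adjusted p = 1), and -0.34 (SE 0.18, adjusted p = 0.407) without n-HA replicate 1.

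**Figure D2:**
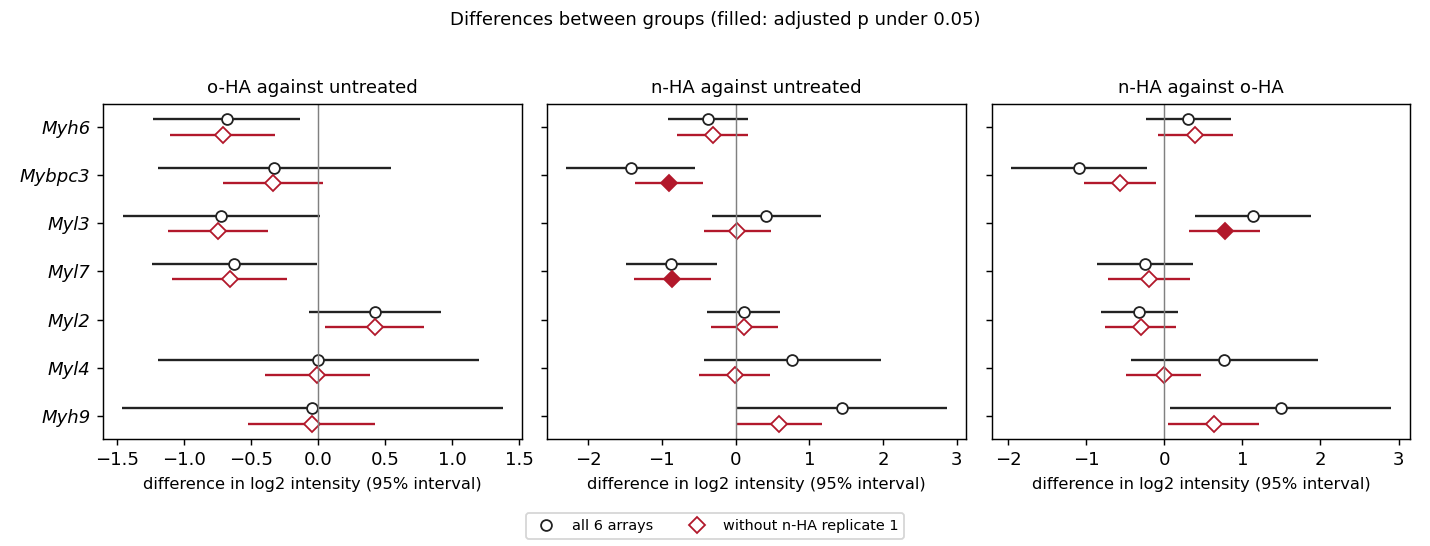
Difference in log2 intensity (horizontal axis) with its 95% interval for the 7 tested members (vertical axis) in each comparison, with all 6 arrays (circles) and without n-HA replicate 1 (diamonds), filled where the adjusted p is under 0.05. Filled symbols appear for Mybpc3 (-0.90) and Myl7 (-0.86, fitted) with n-HA and for Myl3 (0.77) in n-HA against o-HA, all without n-HA replicate 1.

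Counted together for o-HA against untreated, 5 of the 7 tested members had groups that did not overlap, of which 4 were lower and 1 higher. Over all 6194 probes 43.7% did not overlap, 22% lower and 21.7% higher. An unadjusted p under 0.05 was found for 2 members (Myh6 and Myl7) and for 1.26% of all probes (78). Myl7, also 1 of the 4 lower members, was detected on only 1 o-HA array and entered the test through the untreated cells. The median difference was -0.33 over the 7 members and 0.00 over all probes. Leaving out n-HA replicate 1, 24 of 5893 probes passed the adjusted threshold (0.407%) and no member did, while 4 members (Myh6, Myl3, Myl7 and Myl2) and 14.1% of all probes had an unadjusted p under 0.05.

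For n-HA against untreated, 5 of the 7 members did not overlap, 3 lower (Myh6, Myl7 and Mybpc3) and 2 higher (Myh9 and Myl2), beside 54.3% of all probes (30.5% lower and 23.8% higher). An unadjusted p under 0.05 was found for 3 members (Mybpc3, Myl7 and Myh9) and for 21.8% of all probes (1349). The median difference was 0.11 over the members and -0.01 over all probes. Of the 7 members, 2 passed the adjusted threshold without n-HA replicate 1, both lower and 1 of them Myl7, which no n-HA array detected, beside 17.1% of all 5893 probes and 9.77% that were lower.

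The comparison of n-HA with o-HA sets chain lengths given at different doses side by side. Myl3 was higher with n-HA by 1.14 (SE 0.30, 95% interval 0.40 to 1.87, 2.20-fold, unadjusted p = 0.00916, adjusted p = 0.325, or 0.321 to 0.696 over 10 settings that left out no replicate), and Mybpc3 was lower, with a difference of -1.10 (SE 0.36, unadjusted p = 0.0214, adjusted p = 0.330). Myh9 was higher by 1.49 (SE 0.58, adjusted p = 0.347). Myl3 had 0.77 (SE 0.22, 95% interval 0.31 to 1.23) without n-HA replicate 1. It had 1.57 without n-HA replicate 2, which left only the array that stood apart. Mybpc3 had -0.57 (SE 0.22) and -1.61, and Myh9 had 0.63 and 2.45, in the same order. With no normalization between arrays, where the median of all probes was -0.36, Mybpc3 passed at -1.86 (adjusted p = 0.0303), Myl3 had 0.34 and Myh9 0.80.

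The other 4 members did not pass in n-HA against o-HA with all 6 arrays. The difference was 0.31 for Myh6 (SE 0.22, 95% interval -0.24 to 0.85, and -0.34 with no normalization between arrays), -0.32 for Myl2 (SE 0.20, 95% interval -0.81 to 0.17) and 0.77 for Myl4 (SE 0.49, 95% interval -0.43 to 1.97). Myl2 passed at -1.22 (adjusted p = 0.0375) with no normalization between arrays. Leaving out 1 array at a time moved Myl4 between -0.01 (without n-HA replicate 1) and 1.52 (without n-HA replicate 2), with 0.18 where arrays were not normalized to each other. Myl7 was undetected on 3 of the 4 treated arrays and no fold is given between them. The groups did not overlap for 5 of the 7 members, beside 48% of all probes, and 3 members and 14.1% of all probes had an unadjusted p under 0.05. Without n-HA replicate 1, 1 member, higher, passed the adjusted threshold, as did 9.18% of 5893 probes, with 3.51% of all probes higher.

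Replicates of 1 group were unequally close. The gap between the 2 untreated arrays was 0.02 to 0.34 over the 7 members and that between the o-HA arrays 0.10 to 0.74. Between the n-HA arrays it was 1.78 for Myh9, 1.54 for Myl4, 1.02 for Mybpc3 and 0.78 for Myl3, but 0.15 for Myh6, 0.11 for Myl7 and 0.03 for Myl2. Each array read a member's probe from 23 to 61 beads, whose standard error was 2.84% to 8.49% of the intensity. Carried to the log2 scale, the gap exceeded 2 of its bead standard errors for 1 of 7 members in untreated cells, 2 with o-HA and 4 with n-HA.

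**Figure D3:**
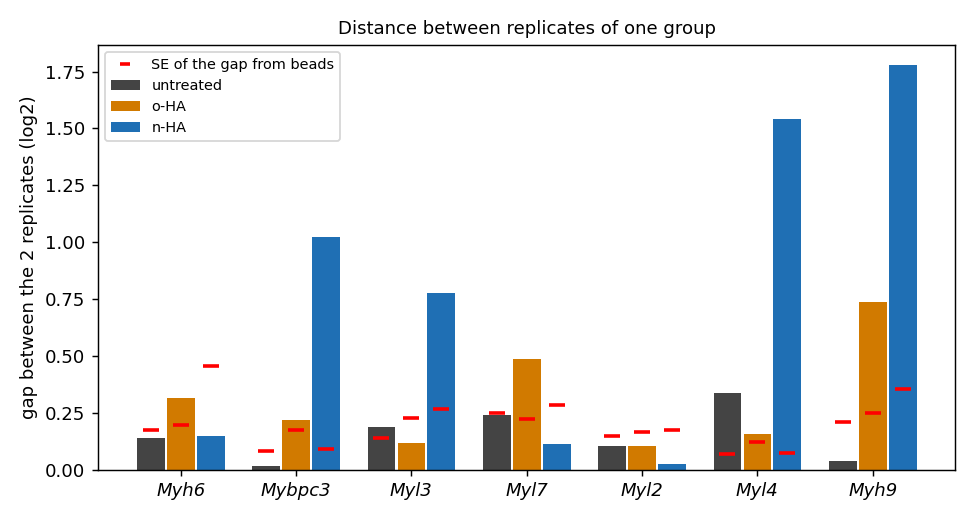
Distance in log2 intensity between the 2 replicates (bars, vertical axis from 0) for the 7 tested members and 3 groups, with a red mark at the standard error of that distance from the spread of beads. The n-HA bars of Myh9 (1.78), Myl4 (1.54), Mybpc3 (1.02) and Myl3 (0.78) stand well above their marks, and those of Myh6, Myl7 and Myl2 lie below theirs.

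Within-array ratios set pairs of chains with related roles against each other, centred on the untreated mean, and were chosen after the values were seen, so no test is given. The ratio of Myl2 to Myl7, the ventricular to the atrial regulatory chain, was -0.07 and 0.07 on the log2 scale in untreated cells, 1.24 and 0.86 after o-HA, and 1.02 and 0.94 after n-HA, where the Myl7 value was a reading at background. All 4 treated arrays lay above both untreated ones. Myl7 was also undetected on o-HA replicate 1, which gave the ratio of 1.24, and it had entered the test through the untreated cells. The ratio of Myl3 to Myl4, the ventricular to the atrial essential chain, was -0.59 and -0.86 with o-HA, below untreated cells, and -0.74 and 0.03 with n-HA, which overlapped them. Myh6 over Mybpc3 was -0.40 and -0.31 after o-HA and 1.49 and 0.61 after n-HA, on opposite sides of untreated cells. A ratio shows unequal change and not which of the chains was steady.

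**Figure D4:**
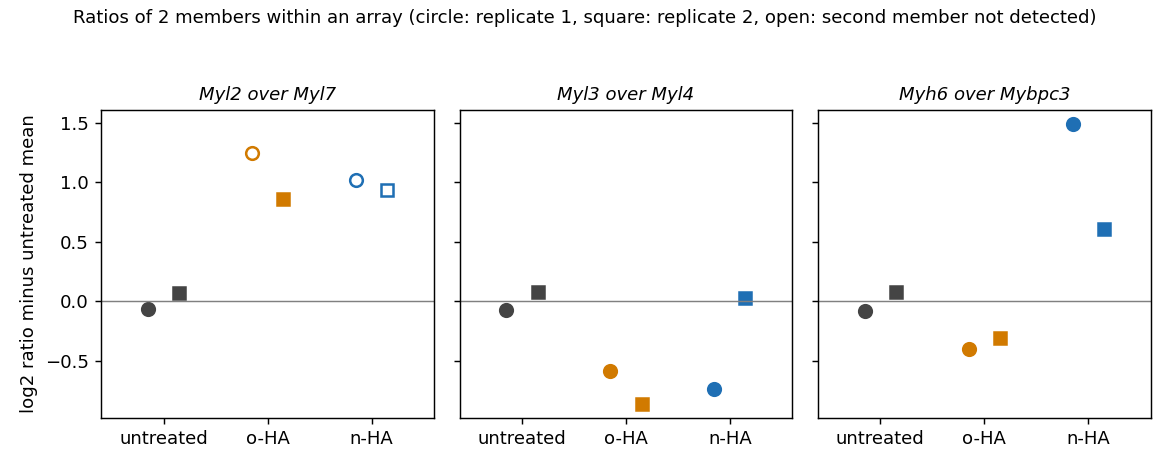
Log2 ratio of 2 members within an array minus the mean of the untreated arrays (vertical axis) by group (horizontal axis), with circles for replicate 1, squares for replicate 2 and open symbols where the second member was not detected. Myl2 over Myl7 lies between 0.86 and 1.24 on the 4 treated arrays, and 3 of those 4 points rest on an undetected Myl7 reading.

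Profiles were compared by the root mean square difference between mean-centred log2 values over the 6 arrays, as a description. Among members the closest pair was Myh6 and Myl7 (0.276), followed by Myl3 and Myl4 (0.379), and the most distant was Myh9 and Mybpc3 (1.53). When n-HA replicate 1 was left out, the closest pairs were instead Myl7 and Mybpc3 (0.204) and Myl2 and Myl4 (0.209), and Myh9 and Mybpc3, still the most distant, came to 0.580. Of all genes tested, those nearest Myh6 were Pim3 (0.0820), Myo10 (0.122) and Mettl17 (0.123). Those nearest Mybpc3 were Chmp2a (0.0447), Etfb (0.0814) and Ube2f (0.0858). All points shared the same 6 arrays, including n-HA replicate 1.

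The remaining conventional myosin chains were mostly at background. Of 21 listed, 14 had a probe, 9 were detected on 0 arrays and 3 (Myh8, Myh10 and Myl1) were tested. Myh10, the heavy chain of non-muscle myosin IIB, read 6.01 and 6.01 in untreated cells, 5.87 and 5.66 after o-HA and 5.74 and 5.05 after n-HA, so both n-HA arrays lay below both untreated ones. Its n-HA difference was -0.62 (SE 0.28, adjusted p = 0.256) with all arrays and -1.01 (SE 0.22, adjusted p = 0.00759) without n-HA replicate 1. No member of this list passed with o-HA, where the median difference of the 3 was -0.12.

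Among enzymes that set the phosphorylation of the regulatory light chain, 8 of 14 genes with a probe were tested. With all 6 arrays none passed, and 7 of the 8 read lower with n-HA, with a median difference of -0.57 (-0.26 without n-HA replicate 1), beside 50.7% lower and a median of -0.01 over all probes. When n-HA replicate 1 was left out, the n-HA group held 1 array. Mylk, the myosin light chain kinase, then had -0.996 (SE 0.23) with its leading probe and -1.33 with its second. Over all 6 arrays these probes had -0.35 (adjusted p = 0.620) and -0.15 (adjusted p = 0.905), and n-HA replicate 1 was the highest array for both. Ppp1r12c, a targeting subunit of myosin phosphatase, was detected on neither n-HA array. It was at least 1.47-fold lower without n-HA replicate 1, or at least 1.45-fold with all 6 arrays (adjusted p = 0.176). Ppp1r12c entered the test through the groups where it was brighter, so this p does not support a fall. Against o-HA and without n-HA replicate 1, Mylk had -0.87. Prkaca, a catalytic subunit of protein kinase A, was not detected on n-HA replicate 2 and was then at least 1.39-fold lower than with o-HA. Over all 6 arrays the Mylk difference from o-HA was -0.23 (adjusted p = 0.768) and that of Prkaca had the other sign, at 0.33 (adjusted p = 0.819), with n-HA replicate 1 its highest array (6.93).

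The thin filament, along which myosin pulls, held 7 tested genes of 12 with a probe. Tnnc1, the calcium-binding troponin of heart and slow muscle, read 11.26 and 11.40 in untreated cells, 10.09 and 10.13 after o-HA and 10.74 and 10.41 after n-HA, and no group overlapped another. Its o-HA difference was -1.22 (SE 0.22, unadjusted p = 0.00142, adjusted p = 1) with all arrays and -1.20 (SE 0.17, adjusted p = 0.0188) without n-HA replicate 1. Without that array the n-HA group held 1 array, and 5 of the 7 genes read lower with n-HA, beside 55.3% of all probes. Tmod1, which caps the filament end, had -1.06 there but -0.12 (adjusted p = 0.904) with all 6 arrays. It read 6.70 on n-HA replicate 1, its highest array, and 4.91 on replicate 2. Tnnc1 had -0.92 with n-HA without replicate 1, and -0.76 (adjusted p = 0.176) with all 6 arrays. The tropomyosin Tpm2 was detected on neither n-HA array and was at least 1.39-fold lower without replicate 1, or at least 1.38-fold with all 6 arrays (adjusted p = 0.167). Tpm2 entered the test through the groups where it was brighter, so this p does not support a fall.

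Of 23 transcription factors known to act on myosin genes, all with a probe, 14 were detected on no array, including Tead1 and Gata4. Of the 23, 6 were tested. All 6 read lower with o-HA (median -0.21, none past the threshold with all arrays), beside 49.7% of all probes. Tbx5, a T-box factor of atrial and left ventricular muscle, read 7.74 and 7.65 in untreated cells, 6.73 and 6.54 after o-HA and 4.89 and 6.31 after n-HA, with no overlap between untreated and treated arrays. Tbx5 fell by 1.05 with o-HA (SE 0.18, adjusted p = 0.0258) and by 1.37 with n-HA (SE 0.22, adjusted p = 0.00168) without n-HA replicate 1. Nr2f2, an atrial identity factor, fell by 1.18 with n-HA (SE 0.27, adjusted p = 0.0102) without that array. With all 6 arrays Tbx5 had -2.09 (adjusted p = 0.159) and Nr2f2 -0.85 (adjusted p = 0.217) with n-HA. Against o-HA without that array, Nr2f2 was lower (-1.08, adjusted p = 0.0231), and with all 6 arrays it had -0.75 (adjusted p = 0.356). Srf, the factor that binds the CArG motif, was detected on neither o-HA array (4.59 and 4.62) and passed as higher there (adjusted p = 0.0443) on the reading of n-HA replicate 2 (5.29) alone. n-HA replicate 1 read 4.70, undetected, and over all 6 arrays Srf was at least 1.19-fold higher (adjusted p = 0.450). The probes of Myocd, a cofactor of Srf, disagreed in n-HA against untreated without n-HA replicate 1. The dimmer, detected on neither n-HA array, was at least 1.49-fold lower, and the brighter had 0.19. Over all 6 arrays the adjusted p was 0.170 for the dimmer and the brighter had 0.52 (adjusted p = 0.334). The dimmer probe entered the test through the groups where it read higher, so its p does not support a fall.

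Folding and thick filament partners held 5 tested genes, of which Hsp90aa1, a chaperone used in myosin folding, rose with n-HA without replicate 1 (0.69, SE 0.21, adjusted p = 0.0398) and had 0.40 (adjusted p = 0.367) with all 6 arrays. No leading probe passed with o-HA. The dimmer probe of Unc45a, a myosin chaperone, was undetected on n-HA replicate 2 and at least 1.42-fold lower without replicate 1. With all 6 arrays, where replicate 1 read 6.60, it had 0.33 (adjusted p = 0.741). Its brighter probe had -0.27 (adjusted p = 0.404) and -0.47 (adjusted p = 0.280), in the same order. Of the unconventional myosins, 5 of 14 with a probe were tested and none passed with or without n-HA replicate 1, and 0 had an unadjusted p under 0.05 in any comparison with all arrays. The smallest unadjusted p with o-HA and all arrays was that of Myo10, with a difference of -0.47 (SE 0.25, unadjusted p = 0.103).

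**Figure D5:**
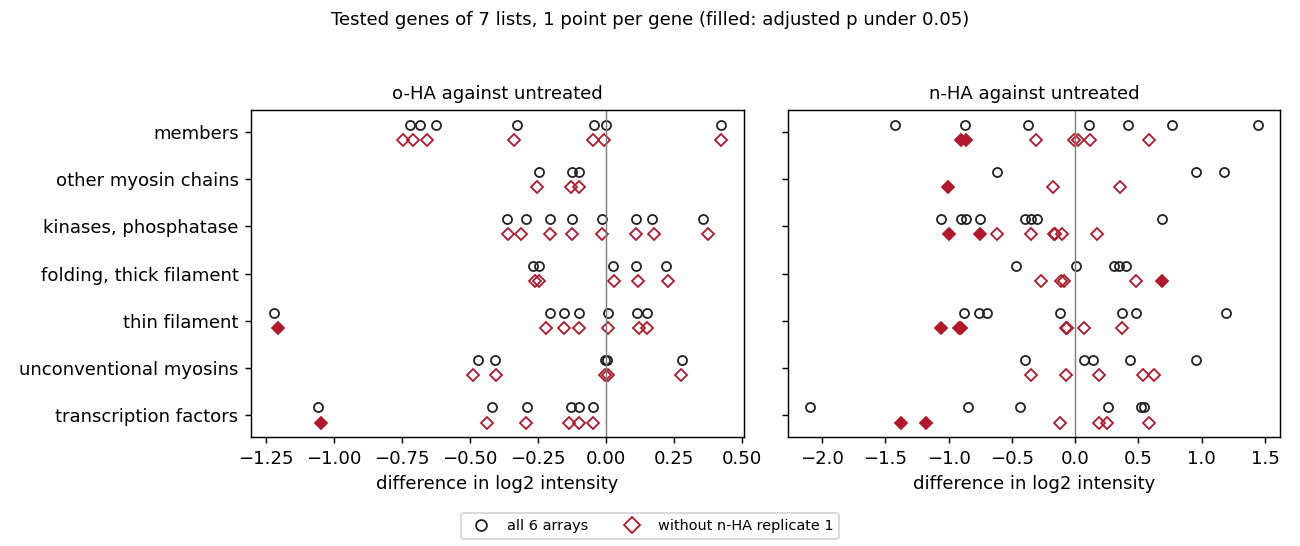
Difference in log2 intensity (horizontal axis) for the tested genes of 7 lists (vertical axis), 1 point per gene, with o-HA (left) and n-HA (right) against untreated, circles for all 6 arrays and diamonds without n-HA replicate 1, filled where the adjusted p is under 0.05. No circle is filled, and filled diamonds with o-HA belong to Tnnc1 (-1.20) and Tbx5 (-1.05).

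The cell label was checked against marker genes. Of 11 cardiomyocyte markers with a probe, 7 were detected on all 6 arrays and 3 (Ryr2, Pln and Gata4) on none. Of 8 smooth muscle markers 4 were detected on all 6 arrays, with Cnn1 and Myh11, which define mature smooth muscle, on none. Their mean level was 7.44 to 7.56 in untreated cells, 7.37 to 7.44 with o-HA, and 7.69 and 7.59 on the n-HA arrays, and its part in the Myh9 and Myl4 values was not tested. Of 8 fibroblast markers 7 were detected on no array, as were 3 of 6 endothelial and 3 of 4 leukocyte markers. The remaining leukocyte marker, Cd3e, was detected on all 6 arrays, at 4.77 to 5.41. The endothelial marker Tek was detected on every array but n-HA replicate 1. No fibroblast, endothelial or skeletal muscle marker was detected on all 6 arrays.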

How the data were processed

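RNA from HL-1 cells was labelled with the Illumina TotalPrep kit and measured on 6 arrays, 2 per group. The authors deposited linear bead intensity values without normalization, made in BeadStudio 3.3 according to the submitters' processing notes. Beside them the deposited table holds a detection p-value, the count of beads and their standard error. A further deposited table holds the authors' intensity after cubic spline normalization, with the same ranks within each array (rank correlation 1) and 38.1% of values below 0, so a background had been subtracted whose value is not stated in the sources used here. Its column medians were 1.691, 1.687, 1.692, 1.687, 1.689 and 1.694 in the order untreated, o-HA and n-HA. Probe names came from the platform annotation, in which 23978 of 25697 probes had 1 gene symbol, 0 had several and 1719 had none.

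Intensities were background-corrected with neqc in limma 3.58.1 (R 4.3.3), which took the negative controls from the detection p-values, then given an offset of 16, quantile normalized and converted to log2. Those probes whose detection p was under 0.05 on at least 2 arrays were tested with lmFit and eBayes on a mean per group over all 3 groups (3 residual and 3.15 prior degrees of freedom). The two-sided p-values were adjusted after Benjamini and Hochberg across the 6194 probes (5893 without n-HA replicate 1), and every adjusted p is from limma. The number of arrays limits how precise each value is. A fold change against a group in which the probe was undetected on every array is a lower bound. The script was tested on simulated data. Every member probe is described, the brightest of a gene leads, and of each related list up to 4 genes past the threshold are named, or the 1 or 2 of smallest p where none passed. Members and lists were chosen with earlier results of these data known, and Mybpc3 and Myl3 had also been picked out by the study from these arrays. Promoters are from RefSeq. Alternatives covered the background correction, offset, normalization, filter, array weights, a replicate block, the groups fitted and each array left out. The test in BeadStudio was not rerun.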

Additional observations from a re-analysis of the deposited data

Results flagged for a closer look

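Myl3, the ventricular essential light chain, lay below both untreated arrays on both o-HA arrays, while of the n-HA arrays only replicate 1 lay above them. From the untreated mean, its log2 level lay at -0.66 and -0.78 on the o-HA arrays and at 0.80 and 0.03 on the n-HA arrays, so both o-HA arrays were below and both n-HA arrays above. The difference between n-HA and o-HA was 1.14 (SE 0.30, adjusted p = 0.325 from limma with all 6 arrays). It was 0.77 without n-HA replicate 1 and 1.57 without n-HA replicate 2. The n-HA difference from untreated was 0.03 without n-HA replicate 1, and -0.46 with no normalization between arrays. n-HA replicate 2 was within the spread of the untreated arrays, and the hyaluronans were given at different doses.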

How the results depend on the processing

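With all 6 arrays no member passed in any comparison, and this held without background correction, with an offset of 50, with the authors' normalized values, with detection on all 6 arrays required (which leaves Myl7 out), with no filter, with array weights and with only the 2 groups compared. Without normalization between arrays 2 members passed in n-HA against untreated (Mybpc3 at -2.34 and Myh6 at -1.10) and 2 in n-HA against o-HA (Mybpc3 at -1.86 and Myl2 at -1.22). Of all 6194 probes, 1472 and 1193 passed there, in the same order. In that setting the median of all probes was -0.35 and -0.36 in these comparisons, against -0.01 in both after normalization. It also turned the sign for Myl2 (-0.83) and Myl3 (-0.46) in n-HA against untreated, for Myh6 in n-HA against o-HA (-0.34) and for Myl4 in o-HA against untreated (-0.03). Relative to the shift of all probes, the n-HA differences were then -1.99 for Mybpc3, -0.75 for Myh6, -0.74 for Myl7, -0.48 for Myl2, -0.12 for Myl3, 0.50 for Myl4 and 1.13 for Myh9. With only the 2 groups compared, Myl4 with o-HA was 0.00 with the sign turned. Leaving out each array in turn gave 0 to 0 members past the threshold with o-HA, 0 to 5 with n-HA and 0 to 4 in n-HA against o-HA. Without n-HA replicate 1 the counts were 2 and 1, and without n-HA replicate 2 they were 5 (Mybpc3, Myh9, Myl3, Myl4 and Myl7) and 4 (Mybpc3, Myh9, Myl3 and Myl4). Over the same fits Myl4 ranged from -0.16 to 0.18 with o-HA, from -0.01 to 1.53 with n-HA and from -0.01 to 1.52 in n-HA against o-HA, and Myh9 from -0.39 to 0.32 with o-HA. The replicate number was also fitted as a block, though same-numbered arrays did not deviate together (correlations of -0.11, 0.15 and -0.04 between pairs of groups). With the replicate block 0 members passed in each comparison, the count without it. Over all probes, array weights gave 26 calls with o-HA and 8 with n-HA, the fit of only 2 groups 12 with o-HA, and no filter 12 with n-HA, none of them a member. The weights came out equal for the 2 arrays of each group, at 0.22 for both n-HA arrays and 2.13 for the others. They therefore lowered the whole n-HA group and could not set n-HA replicate 1 apart. Signal over background limits Myl7, Myh7, Myl6 and the second Myh6 probe.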
